A study of Mus musculus with 12 samples.

Results

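The 10 genes Sox1, Sox2, Sox3, Sox21, Sox4, Sox11, Sox12, Sox8, Sox9 and Sox10 were taken by symbol from the 30740 genes of the deposited count table, as the SoxB, SoxC and SoxE subgroups of the Sox family. They were followed across 12 RNA-seq libraries from cells of the ventral spinal cord of CB6F1/J mouse embryos at E12.5 (embryonic days), separated by flow cytometry according to the Hb9:GFP reporter. That transgene is driven by the promoter of Hb9 (Mnx1), a motor neuron transcription factor, so GFP-positive cells are those in which the promoter was active and GFP-negative cells are the mixed remainder of the tissue. Tissue was pooled over embryos, and sorted cells came from Arhgap35 knockout embryos (KO; Arhgap35 encodes the GTPase-activating protein p190) or from control littermates, which the genotype label gives as wild type and the protocol as either wild-type or heterozygous. There were 5 knockout GFP-positive libraries, 5 control GFP-positive libraries, 1 knockout GFP-negative library and 1 control GFP-negative library. All samples carry the reporter by their titles, and the cell type label reads motor neuron for GFP-negative samples too. That label went against the markers, since Mnx1 had 229.5 to 315.1 CPM (counts relative to library size, scaled by the TMM method) in GFP-positive libraries but 0.438 and 0.508 CPM in the knockout and control GFP-negative libraries.

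Sox proteins are transcription factors that bind DNA through an HMG box. SoxB1 proteins (Sox1, Sox2, Sox3) keep neural progenitors of the ventricular zone undifferentiated, and the SoxB2 protein Sox21 was shown in chick to oppose them and favour differentiation. SoxC proteins (Sox4, Sox11, Sox12) are most abundant in newly formed neurons, where Sox4 and Sox11 activate pan-neuronal genes, while SoxE proteins act in the switch to glia (Sox9, Sox8) and in oligodendrocyte and neural crest lineages (Sox10).

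Each gene was placed on GRCm38 with the GENCODE M21 annotation. The SoxB1 genes lay at chr8:12395295-12400126 (Sox1, + strand), chr3:34650405-34652461 (Sox2, +) and chrX:60891366-60893430 (Sox3, −), and Sox21 at chr14:118233232-118237030 (−). The SoxC genes lay at chr13:28948919-28953713 (Sox4, −), chr12:27334264-27342574 (Sox11, −) and chr2:152393611-152398063 (Sox12, −). The SoxE genes lay at chr17:25565892-25570686 (Sox8, −), chr11:112782224-112787760 (Sox9, +) and chr15:79154908-79165240 (Sox10, −). The SoxB genes, Sox4 and Sox11 had a single exon, Sox12 had transcripts of 1 or 2 exons, and the SoxE genes had transcripts of 2 to 5 exons.

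Promoters are shown for 4 genes that stand for the different patterns between sorts described below: Sox2 (a SoxB gene, low in GFP-positive cells), Sox4 and Sox11 (SoxC genes that were 1.77-fold and 2.12-fold lower there) and Sox12 (a SoxC gene that was not lower there). Each runs 5′ to 3′ over 300 bases, from 250 bases before to 50 after the RefSeq gene start on GRCm38.p6, and capitals mark CCAAT boxes (CCAAT), GC boxes (GGGCGG) and TATA boxes (TATAAA) on either strand. They lie at chr3:34649745-34650044 (Sox2, + strand), chr13:28953650-28953949 (Sox4, −), chr12:27342669-27342968 (Sox11, −) and chr2:152397997-152398296 (Sox12, −).
Sox2: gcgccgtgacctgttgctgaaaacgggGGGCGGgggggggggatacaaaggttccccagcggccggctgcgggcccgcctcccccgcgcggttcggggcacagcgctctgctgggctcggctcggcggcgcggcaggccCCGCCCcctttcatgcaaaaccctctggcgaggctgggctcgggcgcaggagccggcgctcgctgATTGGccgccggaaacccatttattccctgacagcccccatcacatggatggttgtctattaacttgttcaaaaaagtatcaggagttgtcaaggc
Sox4: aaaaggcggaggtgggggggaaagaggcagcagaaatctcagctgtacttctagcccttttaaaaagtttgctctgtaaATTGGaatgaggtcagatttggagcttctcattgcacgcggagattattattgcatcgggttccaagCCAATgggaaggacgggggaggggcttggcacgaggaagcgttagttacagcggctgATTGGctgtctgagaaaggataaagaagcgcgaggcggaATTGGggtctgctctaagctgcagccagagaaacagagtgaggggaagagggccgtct
Sox11: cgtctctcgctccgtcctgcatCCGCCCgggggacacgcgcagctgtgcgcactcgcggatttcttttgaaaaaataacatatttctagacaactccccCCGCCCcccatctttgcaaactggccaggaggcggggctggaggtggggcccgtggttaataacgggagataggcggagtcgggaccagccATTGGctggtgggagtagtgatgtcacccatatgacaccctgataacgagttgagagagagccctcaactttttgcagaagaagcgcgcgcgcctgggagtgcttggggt
Sox12: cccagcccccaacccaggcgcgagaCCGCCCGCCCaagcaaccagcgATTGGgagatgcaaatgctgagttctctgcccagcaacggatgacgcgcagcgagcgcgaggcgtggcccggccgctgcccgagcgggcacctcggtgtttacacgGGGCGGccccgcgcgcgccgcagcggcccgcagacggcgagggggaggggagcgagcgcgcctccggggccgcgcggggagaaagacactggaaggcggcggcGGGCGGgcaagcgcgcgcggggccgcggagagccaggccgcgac

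The Sox4 window held 4 CCAAT boxes and no GC box, with a GC content of 52%. The Sox12 window held 4 GC boxes, 1 CCAAT box and 47 CpG dinucleotides at 76.7% GC. The Sox2 and Sox11 windows each held 1 CCAAT box and 2 GC boxes. A TATA box was found in 0 of the 7 promoters at hand (those of Sox1, Sox21 and Sox8 besides), while 13.6% of all 32851 promoters of this length held one, 37.4% held a CCAAT box and 35.7% a GC box. The letters ACAANG, a core to which Sox proteins can bind, occurred once each in the Sox1 and Sox2 windows and in 41.2% of all promoters. In the 4 sequences no match of one motif overlapped a match of another, while 2 of the GC boxes of Sox12 overlapped each other. The matches describe letters, and Sox3, Sox9 and Sox10 were not in the promoter table.

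Near-identical coding stretches between members are shown because a 50-base read that fits both genes could be shared between their counts. The longest stretch between Sox4 and Sox11 had 48 bases in the HMG box (chr13:28952749-28952796, − strand, and chr12:27342166-27342213), that between Sox1 and Sox2 had 38 bases in the HMG box (chr8:12396577-12396614, + strand, and chr3:34650608-34650645), and that between Sox9 and Sox10 had 44 bases outside it (chr11:112782831-112782874, + strand, and chr15:79163430-79163473). All letters are identical in both genes, so none is capitalised.
Sox4 and Sox11: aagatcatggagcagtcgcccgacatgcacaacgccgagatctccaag
Sox1 and Sox2: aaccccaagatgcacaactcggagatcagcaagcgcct
Sox9 and Sox10: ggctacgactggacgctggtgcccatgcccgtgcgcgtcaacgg

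Each of these runs, and the 45 bases shared by Sox1 and Sox3, was shorter than a read. Overlap with other genes was larger: 54.6% of the exonic bases of Sox4 lie under the antisense lincRNA Gm26735, 18.8% of those of Sox21 under Gm4675, 10.6% of those of Sox8 under 2810468N07Rik and 1.78% of those of Sox1 under Gm25239. The kit does not mark strand, so reads from a gene and its antisense partner cannot be told apart, and Sox4 is the member most open to this. Gm26735 held 61.3 to 117.1 CPM in GFP-positive libraries, 201.2 CPM in the knockout GFP-negative library and 191 CPM in the control GFP-negative library.

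Libraries held 24.6 to 33.8 M estimated counts (knockout GFP-positive), 23.7 to 30.2 M (control GFP-positive), 26.5 M (knockout GFP-negative) and 28.7 M (control GFP-negative), and 24098 to 24947 genes were detected per library. A level of 3 counts corresponded to 0.0887 to 0.127 CPM. Arhgap35 checked the labels: it averaged 96.9 ± 7.84 CPM in knockout and 172.7 ± 25.6 CPM in control GFP-positive libraries (SD, n = 5 each) with no overlap, and the lone GFP-negative libraries held 96.3 CPM (knockout) and 154.8 CPM (control). Its log2 fold change was −0.83 (SE 0.0996, adjusted p = 0.024, edgeR), and with the replicate number as a block it was −0.82 (SE 0.0877), which was no longer called (adjusted p = 0.162, edgeR). Whether libraries stem from separate litters is not stated, and all p-values rest on the spread among these libraries, which may be technical.

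GFP-positive cells were first compared with GFP-negative cells in all 12 libraries, with genotype as a covariate. The 4 SoxB genes were 21.1-fold to 25.5-fold lower in GFP-positive cells, Sox8 and Sox9 were 10.1-fold and 11.8-fold lower, Sox4 and Sox11 were about 2-fold lower, and Sox12 was not called. Of the 9 genes that also passed the filter on low counts in GFP-positive libraries alone, 8 were lower at an adjusted p under 0.05 (edgeR's quasi-likelihood test, Benjamini-Hochberg over 19763 genes), where 33% of the 17487 genes that passed there were called lower. All GFP-positive libraries lay below both GFP-negative ones for 8 of the 9, as for 32.9% of those genes. In 6 of the 9 the fall was at least 3 on the log2 scale, a size reached by 343 genes (1.96%). Sox10 passed only with the GFP-negative libraries included, where it is high, so its difference is given as a description and enters none of these counts. In these bulk libraries, fewer cells of a type and less RNA per cell cannot be told apart.

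Both GFP-negative libraries carry replicate number 1, and the GFP-positive libraries of that number were the highest for most of these genes. With the replicate number as a block, chosen after seeing the data, the difference between sorts rests on the 4 libraries numbered 1, while the spread comes from all 12. The falls were then smaller, at 14.1-fold for Sox2, 11.02-fold for Sox1, 14.6-fold for Sox3, 9.92-fold for Sox21, 8.76-fold for Sox8, 8.35-fold for Sox9, 1.80-fold for Sox11 and 1.75-fold for Sox4. All 8 remained called lower, where 28.7% of all genes were, and Sox12 was called higher. Within number 1 the GFP-negative level of Sox9 was 8.29 times the GFP-positive one in knockout and 8.42 times in control, and that of Sox21 12.9 times in knockout and 8.16 times in control.

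Among the SoxB1 genes, Sox2 had 10.8, 9.41, 6.85, 3.32 and 2.80 CPM in the knockout GFP-positive libraries numbered 1 to 5, and 12.4, 9.26, 4.57, 3.22 and 2.84 CPM in the control GFP-positive libraries numbered 1 to 5, against 167.2 CPM in the knockout and 160.9 CPM in the control GFP-negative library. The 2 sorts did not overlap, and within GFP-positive cells the 2 libraries numbered 1 were highest in their genotypes. Sox2 was 25.1-fold lower in GFP-positive cells (log2 fold change −4.65, SE 0.454, adjusted p = 8.24e-06, edgeR).

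Sox1, which persists in some interneurons as well as marking progenitors, had 1.58, 0.990, 0.775, 0.386 and 0.205 CPM in the knockout and 1.92, 1.06, 0.504, 0.334 and 0.0847 CPM in the control GFP-positive libraries, against 18.7 CPM in the knockout and 20.0 CPM in the control GFP-negative library. Sox3, the X-linked SoxB1 gene, had 1.30, 1.24, 0.938, 0.504 and 0.684 CPM in the knockout and 1.29, 0.850, 0.881, 0.711 and 0.593 CPM in the control GFP-positive libraries, against 18.3 and 19.6 CPM in the knockout and control GFP-negative libraries. Both genes were low in every GFP-positive library, without overlap between sorts, and the lowest Sox1 value lay below the level of 3 counts. Their log2 fold changes were −4.61 for Sox1 (24.5-fold lower, SE 0.565, adjusted p = 2.90e-05, edgeR) and −4.40 for Sox3 (21.1-fold lower, SE 0.228, adjusted p = 2.97e-09).

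Sox21, the SoxB2 gene, had 3.70, 2.31, 1.47, 0.593 and 0.615 CPM in the knockout and 5.96, 2.59, 0.545, 0.502 and 0.508 CPM in the control GFP-positive libraries, against 47.7 CPM in the knockout and 48.7 CPM in the control GFP-negative library. It varied most among the SoxB genes in CPM relative to its mean, and the control library numbered 1 stood highest, yet no GFP-positive library came near the GFP-negative ones. Sox21 was 25.5-fold lower (log2 fold change −4.67, SE 0.679, 95% confidence interval −6.20 to −3.15, adjusted p = 0.000157, edgeR). Without both GFP-positive libraries numbered 1, an alternative chosen after seeing the data, the log2 fold change was −5.43.

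**Figure D1:**
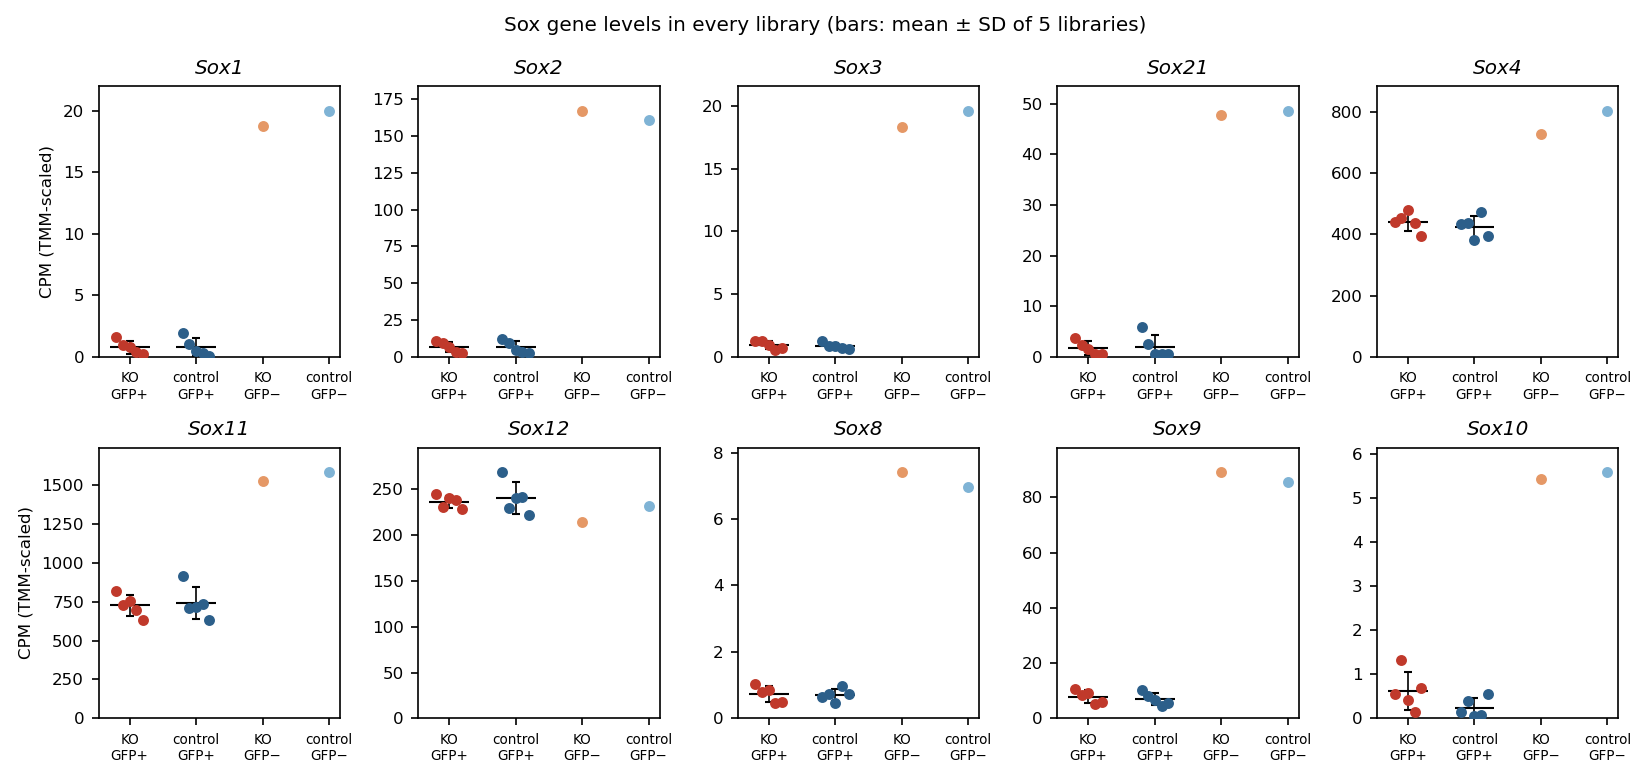
Level of each Sox gene in CPM (linear axes from 0) in every library, by genotype and sort; points are libraries, and bars give the mean and SD of the 5 libraries of a GFP-positive group. The SoxB and SoxE genes lie near 0 in GFP-positive cells beside high GFP-negative points, Sox4 and Sox11 lie at about 50% of them, and Sox12 is level.

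The SoxC genes were abundant in both sorts. Sox11, an activator of neuronal genes, had 819.9, 726, 755.5, 697.7 and 630.4 CPM in the knockout and 912.8, 710.2, 715.4, 737.2 and 634.6 CPM in the control GFP-positive libraries, against 1530 CPM in the knockout and 1584 CPM in the control GFP-negative library. It stayed high in every library but reached no GFP-negative value in GFP-positive cells. Sox11 was 2.12-fold lower (log2 fold change −1.08, SE 0.103, adjusted p = 1.68e-06, edgeR).

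Sox4, the other main activator of the subgroup, had 439.5, 452, 479.3, 436.1 and 394.5 CPM in the knockout and 434.1, 435.5, 380.5, 472.9 and 393.9 CPM in the control GFP-positive libraries, against 725.4 CPM in the knockout and 803.3 CPM in the control GFP-negative library. The sorts did not overlap, and the knockout and control libraries numbered 3 were the highest and lowest of the GFP-positive ones. Sox4 was 1.77-fold lower (log2 fold change −0.82, SE 0.0753, adjusted p = 5.69e-07, edgeR). With the counts of Sox4 and Gm26735 summed as 1 gene, chosen after seeing the data, the log2 fold change was −0.88 (adjusted p = 2.38e-07).

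Sox12, the weakest activator of the SoxC proteins in mouse, had 244.4, 230.9, 240, 238.6 and 228.8 CPM in the knockout and 268.7, 229.9, 240.5, 241.9 and 222.1 CPM in the control GFP-positive libraries, against 214.3 CPM in the knockout and 231.6 CPM in the control GFP-negative library. It was the only member whose sorts overlapped. Its log2 fold change was 0.10 (95% confidence interval −0.02 to 0.22, adjusted p = 0.150, edgeR), and with the replicate block it was 0.20 (0.10 to 0.31), which was called higher (adjusted p = 0.003, edgeR).

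Among the SoxE genes, Sox9, which starts gliogenesis in the spinal cord, had 10.8, 8.46, 9.14, 5.25 and 5.81 CPM in the knockout and 10.2, 8.03, 6.59, 4.56 and 5.63 CPM in the control GFP-positive libraries, against 89.2 CPM in the knockout and 85.6 CPM in the control GFP-negative library. Sox8, which acts alongside Sox9 and Sox10 in glia, ranged from 0.475 to 1.02 CPM in the knockout and from 0.462 to 0.962 CPM in the control GFP-positive libraries, against 7.41 and 6.98 CPM in the knockout and control GFP-negative libraries. Neither gene overlapped between sorts. Sox9 was 11.8-fold lower (log2 fold change −3.56, SE 0.231, adjusted p = 1.42e-07, edgeR) and Sox8 10.1-fold lower (−3.34, SE 0.220, adjusted p = 2.11e-08). Sox9 also marks cartilage, and of those markers Col2a1, a cartilage collagen also made in the early neural tube, had 7.69 to 23.9 CPM in GFP-positive libraries and 176.9 and 166.7 CPM in the knockout and control GFP-negative libraries, and Col11a2, another cartilage collagen, had 40.5 to 54.2 CPM in GFP-positive libraries and 24.8 and 26.4 CPM in the knockout and control GFP-negative libraries (log2 fold change 0.87, adjusted p = 9.89e-07, edgeR). Acan, the main cartilage proteoglycan, stayed at or below 0.163 CPM throughout.

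Sox10, which marks neural crest, Schwann cells and oligodendrocyte precursors, was the scarcest member. Its estimated counts were 14, 32.2, 10, 4.6 and 19.5 in the knockout GFP-positive libraries numbered 1 to 5 and 4, 9, 1, 2 and 12.6 in the control ones, against 149.2 in the knockout and 165.4 in the control GFP-negative library. In CPM these were 0.552, 1.32, 0.408, 0.148 and 0.684 (knockout GFP-positive), 0.132, 0.382, 0.0420, 0.0836 and 0.550 (control GFP-positive), 5.44 (knockout GFP-negative) and 5.59 (control GFP-negative). The sorts did not overlap. The fitted level was 14.6-fold lower in GFP-positive cells (log2 fold change −3.87, SE 0.543), with −3.15 in knockout libraries alone and −4.53 in control libraries alone. Leaving out a lone GFP-negative library gave −3.15 without the control one and −4.55 without the knockout one. With genotype as a covariate the difference then rests on the other genotype alone, so these values are no separate check.

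Markers of other sources of Sox10 were set beside it. The 6 Schwann cell and neural crest markers summed to 16.4 to 24.03 CPM in knockout and 19.4 to 28.1 CPM in control GFP-positive libraries, against 23.3 CPM in the knockout and 25.8 CPM in the control GFP-negative library, both inside the range of the control GFP-positive libraries. Among GFP-positive libraries the knockout one numbered 2 was highest for Sox10, and the part of such cells in that value was not tested. Pdgfra, a receptor of oligodendrocyte precursors, had 0.237 to 0.784 CPM in GFP-positive libraries and 5.92 and 4.78 CPM in the knockout and control GFP-negative libraries, a 10.3-fold difference (adjusted p = 2.01e-08, edgeR). Of 9 gliogenic and oligodendrocyte precursor genes 8 were lower, Pdgfra among them, and Nfia was higher. Nfia had 79.86 to 98.85 CPM in GFP-positive libraries and 52.85 and 45.91 CPM in the knockout and control GFP-negative libraries. The sum of 6 such markers, Nfia included, was 89.38 to 100 CPM in knockout and 82.96 to 100.8 CPM in control GFP-positive libraries. It was 78.08 and 70.68 CPM in the knockout and control GFP-negative libraries.

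**Figure D2:**
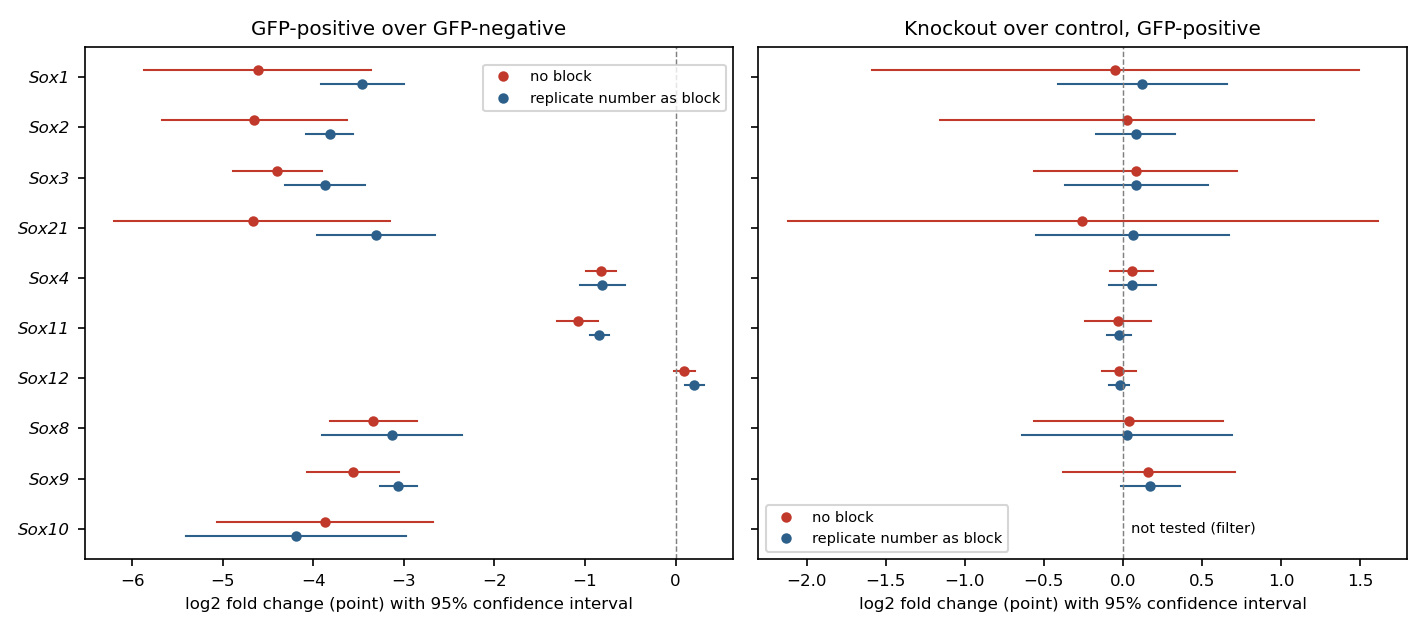
Log2 fold change (points) and 95% confidence interval (lines) of each Sox gene, for GFP-positive over GFP-negative cells in all 12 libraries (left) and knockout over control in GFP-positive cells (right), without and with the replicate number as a block. On the left the SoxB and SoxE genes lie between −4.67 and −3.34 without the block and between −4.19 and −3.06 with it. The point of Sox12 lies above 0 in both fits, and its whole interval only with the block. On the right every interval spans 0.

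Per-length levels gave the order of the genes. In TPM (length-normalized transcript abundance), GFP-positive libraries averaged 206.5 for Sox4, 199.1 for Sox11, 123.3 for Sox12, 6.12 for Sox2, 4.85 for Sox9, 1.22 for Sox21, 1.00 for Sox3, 0.620 for Sox8, 0.443 for Sox1 and 0.408 for Sox10. Ranges did not overlap between Sox11 and Sox12 or between Sox12 and Sox2, and overlapped for all other neighbours. Within libraries, Sox9 stood above Sox21 and Sox3 above Sox8 in 10 of 10, Sox4 above Sox11, Sox2 above Sox9 and Sox8 above Sox1 in 7 of 10, Sox1 above Sox10 in 6 of 10 and Sox21 above Sox3 in 4 of 10. In the 2 GFP-negative libraries the mean TPM were 413.3 for Sox11, 357.7 for Sox4, 149.8 for Sox2, 112.8 for Sox12, 55.1 for Sox9, 30.9 for Sox21, 20.6 for Sox3, 10.7 for Sox1, 5.53 for Sox8 and 4.57 for Sox10. There no neighbours overlapped. In TPM, Sox2 thus stood below Sox12 in all 10 GFP-positive libraries and above it in both GFP-negative ones.

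Summed over subgroups, the SoxC genes made up 95.96% to 98.55% of the TPM of the 10 genes in knockout and 95.75% to 98.61% in control GFP-positive libraries, against 75.5% in the knockout and 76.7% in the control GFP-negative library. SoxB genes made up 0.793% to 2.52% in knockout and 0.761% to 2.86% in control GFP-positive libraries, against 18.9% in the knockout and 17.7% in the control GFP-negative library. SoxE genes made up 0.643% to 1.52% and 0.612% to 1.39% of knockout and control GFP-positive libraries, against 5.56% and 5.67% of the knockout and control GFP-negative libraries. The SoxC share was thus high in GFP-positive cells although the SoxC sum was lower there, at 478.8 to 564.3 TPM in knockout and 472.5 to 598 TPM in control GFP-positive libraries, against 850.7 TPM in the knockout and 916.9 TPM in the control GFP-negative library. The summed SoxC TPM was 38.1 to 123.7 times the summed SoxB TPM in knockout and 33.4 to 129.3 times in control GFP-positive libraries, against 3.995 times in the knockout and 4.35 times in the control GFP-negative library.

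**Figure D3:**
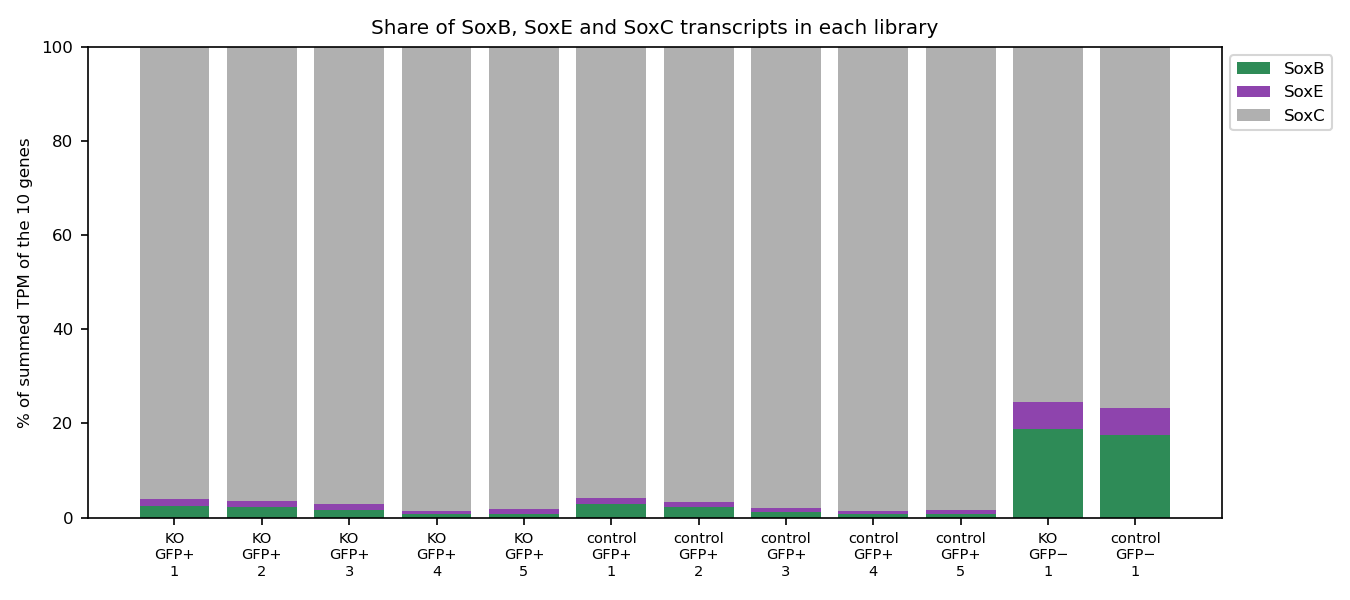
Share (% of the summed TPM of the 10 genes) of SoxB, SoxE and SoxC transcripts in each library, one bar per library, by genotype, sort and replicate number. GFP-positive bars are at least 95.75% SoxC, and the knockout and control GFP-negative bars are 75.5% and 76.7% SoxC.

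Genes of the same programme were read from lists chosen with earlier results of these data known, each set beside a median log2 fold change of 0.02 over all genes tested. Of the 17487 genes that passed the filter on low counts in GFP-positive libraries alone, 33% were called lower. All 12 neural progenitor and radial glia genes were lower in GFP-positive cells (median −3.02), among them Vim, a radial glial intermediate filament (2.51-fold lower), Prom1, a membrane protein of neural stem cells (5.77-fold lower), and Msi1, a progenitor RNA-binding protein (3.08-fold lower). All 12 proliferation genes were lower (median −4.42), including Pcna (3.23-fold), Mcm5 (6.49-fold) and Birc5 (7.29-fold), which act in replication and mitosis. Of 12 proneural and neurogenic factors 11 were lower (median −3.12), with Hes6 2.73-fold, Prox1 11.6-fold and Insm1 8.50-fold lower, and 1, Neurod1, was higher, a call lost without the control GFP-negative library. Only 11 of these 12 proneural and neurogenic factors passed the filter in GFP-positive libraries alone. Their count of lower genes is therefore not strictly comparable with the 33%. All 9 motor neuron genes were higher (median 6.26), and of 12 postmitotic neuron genes 10 were higher and Map2 lower (median 0.67), led by the neurofilament genes Nefm (26.4-fold) and Nefl (19.6-fold). Over all genes, at most 6040 were called higher in fits that left out 1 library, where 19763 were tested with all 12.

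Levels in GFP-positive cells relative to the mean of the 2 GFP-negative libraries showed how far each gene fell, in CPM. The lowest, median and highest GFP-positive library stood at 1.71%, 3.48% and 7.53% for Sox2, at 5.22%, 8.36% and 12.3% for Sox9 and at 40.5%, 46.3% and 58.6% for Sox11. Among progenitor genes Fabp7, a radial glial lipid-binding protein, ranged from 1.96% to 7.44%, and Notch1, the receptor that maintains progenitors, from 1.94% to 9.05%, ranges like that of Sox2. Nes and Vim, the intermediate filaments of progenitors, were at 21.2% to 38.8% and 36.7% to 44.0%, and Pax6, a ventral progenitor factor also kept in some neurons, varied from 2.57% to 48.5%.

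POU factors bind DNA together with Sox proteins, Sox2 and Sox11 with class III POU factors among them. Of 5 such genes 3 were lower in GFP-positive cells (median −1.57), where 33% of all genes that passed the filter in GFP-positive libraries alone were. Pou3f2 had 39.6 to 60.0 CPM in GFP-positive libraries against 184.7 and 183.2 CPM in the knockout and control GFP-negative libraries. Pou3f3 was 2.97-fold lower and Pou3f4 5.81-fold lower. Pou3f1 was higher, and Pou2f1 was not called. Of 4 genes linked to SoxC proteins as targets, Tubb3 (neuronal tubulin) was 1.60-fold and Dcx (doublecortin) 1.37-fold higher in GFP-positive cells, where both Sox4 and Sox11 were lower. Tead2, a mediator of Hippo signalling that Sox4 and Sox11 activate in mouse, was 20.6-fold lower, at 4.10 to 17.0 CPM in GFP-positive libraries against 181.5 and 188.6 CPM in the knockout and control GFP-negative libraries. Map2 was lower as well, a call lost without the knockout GFP-negative library.

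Outside the 3 subgroups, 5 of 10 further Sox genes passed the filter on low counts in GFP-positive libraries alone. Of these Sox6, Sox13 and Sox14 were lower (median −1.09 over the 5), where 33% of all genes that passed that filter were. Sox6, a SoxD gene of progenitors and interneurons, had 25.1 to 34.4 CPM in GFP-positive libraries against 67.6 and 61.9 CPM in the knockout and control GFP-negative libraries (2.13-fold). Sox18, an endothelial SoxF gene that passed only with the GFP-negative libraries, had 0.0847 to 0.212 CPM in GFP-positive libraries and 0.986 and 1.02 CPM in the knockout and control GFP-negative libraries. Sox14, a SoxB2 gene of V2 interneurons, was 11.1-fold lower, at 0.245 to 2.38 CPM in GFP-positive libraries. Sox5 was called higher by 0.16 on the log2 scale (adjusted p = 0.042, edgeR), a call that was lost with library-size scaling, in DESeq2, within either genotype and with the replicate block.

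Of the other cell types the dissection could hold, 6 of 7 V2 interneuron genes were lower (median −3.47), as were 8 of 9 gliogenic genes (median −2.83), 6 of 6 erythroid genes (median −3.80) and 4 of 6 mesenchyme genes (median −1.48). Among all genes that passed the filter in GFP-positive libraries alone, 33% were lower. At most 6040 genes were called higher in fits that left out 1 library, where 19763 were tested with all 12. Endothelial genes had 1 of 6 lower (median −0.79), Schwann and neural crest genes 3 of 8 higher (Ngfr, Gfra3 and Prss56; median −0.09), sensory neuron genes 1 of 7 higher and 2 lower (median 0.10), floor plate genes 1 of 4 higher and 2 lower (median −0.99), and the 2 cartilage genes tested split. Without the control GFP-negative library the mesenchyme count was 1, without either GFP-negative library the endothelial count was 0 (2 without the control library numbered 1 or the knockout library numbered 2), and without the knockout GFP-negative library the floor plate count of lower genes was 1. With the replicate block the floor plate count of lower genes was also 1, 2 Schwann and neural crest genes were lower, and 1 endothelial gene was higher. Some of the genes tested passed the filter only with the GFP-negative libraries: in GFP-positive libraries alone 5 of the 8 Schwann and neural crest genes, 5 of the 7 sensory, 5 of the 6 erythroid, 3 of the 4 floor plate and 11 of the 12 proneural genes passed. The part of these cells in the levels of the Sox genes was not tested.

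By a measure of likeness of pattern (the root mean square difference of centred log2 CPM over the 12 libraries, among 9875 genes), the genes most like Sox2 were Fabp7 (0.174), Wnt7b (0.194), Notch1 (0.203), Ccnd1 (0.227) and Top2a (0.258), where the deviation of Sox2 itself was 1.95. Those most like Sox9 were Hmgb2 (0.130), Daam2 (0.131), Gadd45g (0.165), Notch3 (0.169) and Apcdd1 (0.196), against 1.39 for Sox9 itself. Those most like Sox11 were Pcnt (0.0540), Mycl (0.0559), Zfp422 (0.0568), Rnf122 (0.0634) and Wbp1 (0.0643), against 0.43 for Sox11. All of these patterns hold the contrast between sorts, since the libraries are shared.

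The effect of the knockout was then read in the 10 GFP-positive libraries. None of the 9 Sox genes tested was called (0 at an adjusted p under 0.05 and 0 at an unadjusted p under 0.05 in edgeR, and 0 called in DESeq2), where 6 of 17487 genes (0.0343%) were called and 375 had an unadjusted p under 0.05. Genotypes overlapped for all 10 Sox genes, as they did for all but 94 genes tested (0.538%).

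Mean levels lay close together. Sox4 averaged 440.3 ± 30.7 CPM in knockout and 423.4 ± 36.8 CPM in control GFP-positive libraries (SD, n = 5 each), with a log2 fold change of 0.06 (95% confidence interval −0.08 to 0.19). Sox11 averaged 725.9 ± 70.1 CPM in knockout and 742 ± 103 CPM in control libraries (−0.03, −0.24 to 0.18), and Sox12 236.5 ± 6.53 CPM in knockout and 240.6 ± 17.6 CPM in control libraries (−0.02, −0.13 to 0.08). For these 3 abundant genes the intervals leave room for changes of at most 0.24 on the log2 scale.

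The scarcer genes were bounded less tightly. Sox2 averaged 6.64 ± 3.56 CPM in knockout and 6.45 ± 4.18 CPM in control GFP-positive libraries, with a log2 fold change of 0.03 (95% confidence interval −1.16 to 1.21). The interval of Sox1 ran from −1.59 to 1.49, that of Sox21 from −2.12 to 1.61, that of Sox3 from −0.56 to 0.72, that of Sox8 from −0.56 to 0.63 and that of Sox9 from −0.38 to 0.71. Without a block, the intervals of Sox1, Sox2 and Sox21 leave room for changes beyond 2-fold in either direction.

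Libraries of the same replicate number in the 2 genotypes varied together, so the number was also fitted as a block. The interval of Sox2 then ran from −0.17 to 0.33 around 0.08, that of Sox21 from −0.55 to 0.67 around 0.06 and that of Sox11 from −0.10 to 0.05 around −0.03. Sox9 was higher in the knockout library in 5 of 5 pairs (log2 fold change 0.17, 95% confidence interval −0.01 to 0.36, adjusted p = 0.978, edgeR). The other genes tested were higher there in 2 to 4 of 5 pairs. How many of all genes were higher in every pair was not counted. None of the 9 genes was called under the block, where 5 genes of 17487 (0.0286%) were.

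Sox10 did not pass the filter on low counts in GFP-positive libraries alone. Tested without that filter, its log2 fold change was 1.36 (95% confidence interval −0.08 to 2.81, adjusted p = 0.9992, edgeR). With the replicate block and no filter, chosen after seeing the data, it was 1.42 (0.63 to 2.22), an interval above 0 that was not called after adjustment over all genes (adjusted p = 0.396, edgeR). Sox10 was higher in the knockout library in 5 of 5 pairs, a count for which no share over all genes was taken. The counts behind this were 4.6 to 32.2 per knockout and 1 to 12.6 per control library, the highest in the knockout library numbered 2.

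In GFP-negative cells each genotype had 1 library, so the knockout effect there was compared with that in GFP-positive cells as a difference of 4 group means, assuming that the lone libraries vary like the replicated ones. None of the 9 Sox genes that passed the filter in GFP-positive libraries alone was called (0 at an adjusted and 0 at an unadjusted p under 0.05 in edgeR, and 0 called in DESeq2), where 5 of 19763 genes (0.0253%) were called and 352 had an unadjusted p under 0.05. The interval of Sox4 ran from −0.54 to 0.14 around −0.20. Sox10 passed the filter only with the GFP-negative libraries, where it is high, so its value is a description. Its interval ran from −4.13 to 1.32 around −1.40.

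Several Sox genes for which the genotype was not called differed between replicate numbers. An F-test of the replicate number in the blocked fit, added after seeing the data, called 5 of the 9 genes tested, where 1698 of 17487 genes (9.71%) were called. These were Sox2 (adjusted p = 0.000764, edgeR), Sox1 (0.00443), Sox9 (0.00468), Sox21 (0.00588) and Sox11 (0.00592). Sox12 (0.125), Sox3 (0.130), Sox4 (0.558) and Sox8 (0.925) were not called. What a number stands for is not given in the labels.

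The knockout and control libraries numbered 1 were highest together in these 5 genes. The mean CPM of the pair numbered 1 was 4.10 times that of the pair numbered 5 for Sox2 (11.6 against 2.82 CPM), 12.1 times for Sox1 (1.75 against 0.145 CPM) and 1.37 times for Sox11 (866 against 632 CPM). Against the pair numbered 4 it was 8.82 times for Sox21 (4.83 against 0.548 CPM) and 2.13 times for Sox9 (10.5 against 4.90 CPM). The ratio was smallest for Sox11 among these 5 genes.

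Proliferation genes and part of the progenitor genes differed between numbers as well. The proliferation genes summed to 139.7, 121.5, 101.5, 78.5 and 77.1 CPM in knockout libraries numbered 1 to 5 and to 174.2, 106.2, 87.8, 77.9 and 78.2 CPM in control ones, against 1204 CPM in the knockout and 1068 CPM in the control GFP-negative library. The progenitor and radial glia genes summed to 985.9, 986.2, 1003, 888.4 and 822.3 CPM in knockout GFP-positive libraries numbered 1 to 5. In control ones the sums were 1067, 928.5, 872.1, 893.5 and 826.1 CPM. Among these genes the number was not called for Nes, Vim, Msi1 and Ednrb. The number was called for 9 of 12 proliferation genes, 8 of 12 progenitor genes, 7 of 7 V2 interneuron genes, 4 of 9 motor neuron genes, 4 of 12 postmitotic neuron genes and 0 of 6 endothelial genes. Over all genes tested it was called for 9.71%. Among further lists it was called for 6 of 11 proneural, 3 of 5 POU and 4 of 9 gliogenic genes, and for 0 of 5 erythroid and 0 of 2 cartilage genes. Their part in the levels of the Sox genes was not tested.

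**Figure D4:**
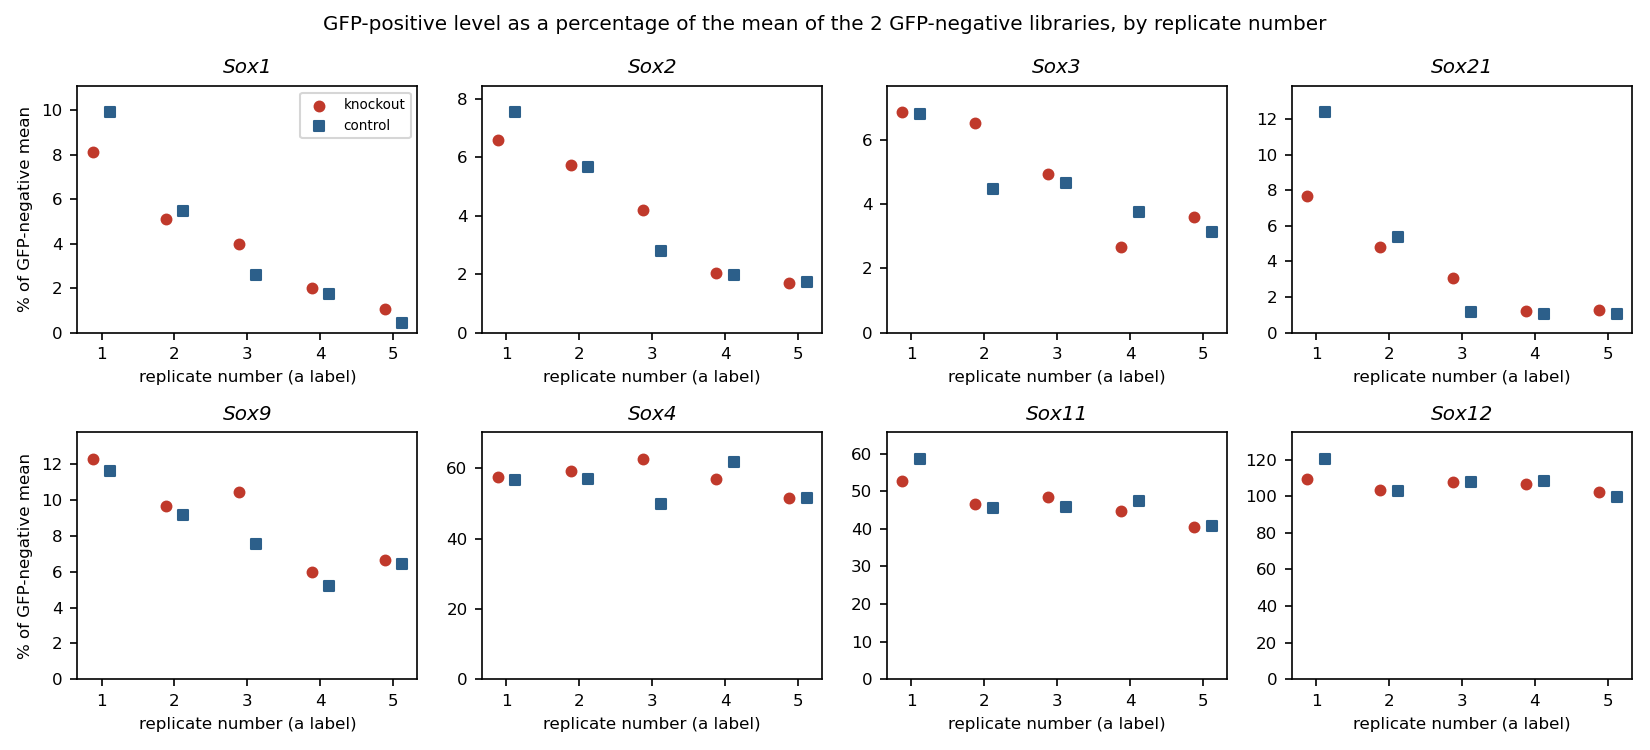
Level of 8 Sox genes in GFP-positive libraries as a percentage of the mean of the 2 GFP-negative libraries (linear axes from 0), by replicate number, which is a label without order; circles are knockout and squares control libraries. The 2 libraries numbered 1 are the highest of the 10 for Sox1, Sox2, Sox3, Sox21, Sox9, Sox11 and Sox12; for Sox4 the knockout library numbered 3 is the highest and the control library numbered 3 the lowest.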

How the data were processed

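RNA was measured in 12 libraries grouped by genotype and GFP status from the labels. The authors deposited estimated counts for each gene symbol, unscaled, with 39.2% of values exactly whole, and a table of TPM values whose columns sum to 974800 to 1018241, so the deposited TPM were rescaled in a way not given in the sources used here. Per the submitters' processing notes kallisto and mm10 were used, and per the labels' protocols the kit was TruSeq v2, read as 50-base single ends. Members were matched by symbol. The members and gene lists were chosen with earlier results of these data known.

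Rounded estimated counts passed through filterByExpr and TMM scaling, and the test was the robust quasi-likelihood F-test of edgeR 4.0.16 (with limma 3.58.1 in R 4.3.3). P-values were adjusted over all genes by Benjamini-Hochberg, at a threshold of 0.05; standard errors come from the log2 fold change and its F statistic. The 3 comparisons were knockout against control in 10 GFP-positive libraries, GFP-positive against GFP-negative in 12 with genotype as a covariate, and the difference of the knockout effects. On simulated counts, 4-fold changes were recovered for 97, 99 and 96 of 100 genes in these comparisons and 2-fold changes for 93, 94 and 64. Changes were planted only in genes above a set mean level, and libraries were simulated without an effect of the replicate number. In GFP-positive libraries Sox1, Sox3, Sox21, Sox8 and Sox10 averaged below that level, so the recovery between genotypes does not cover them. Sox2 averaged above it, but its interval between genotypes without a block ran from −1.16 to 1.21. The recovery of genes picked at random therefore need not hold for Sox2. Levels are CPM with TMM scaling over 12 libraries.

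Libraries of the same number had residuals correlated at 0.381, 0.252, 0.179, 0.277 and 0.310, against at most 0.104 otherwise, so the numbers were taken as pairs. Named genes were the members, Arhgap35, genes overlapping a member, up to 3 called genes of each list with the smallest p, and the 5 genes most like Sox2, Sox11 and Sox9 whose average log2 CPM reached 3. Fabp7, Notch1, Nes, Pax6, Acan, Neurod1, Map2, Pou3f1, Pou2f1 and Sox5 were named with their values in view. Alternatives tried were other scaling, no filter, DESeq2 1.42.0, limma on log2(TPM + 1) and log2(TPM + 0.1), the replicate block, either genotype alone and leaving out each library. Those chosen after seeing the data were leaving out the libraries numbered 1, summing Sox4 with Gm26735, the block with limma on TPM or with no filter, the block between sorts, and the test of the replicate number.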

Additional observations from a re-analysis of the deposited data

How the results depend on the processing

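Between GFP-positive and GFP-negative cells, 239 of 240 values of the Sox genes kept their direction and side of the threshold; with the replicate block Sox12 was called higher, at 0.20, so that 1 Sox gene was higher against 0 without it. Between genotypes in GFP-positive cells 156 of 189 values did and 33 turned sign, none of them called. For the difference of knockout effects 147 of 170 did and 23 turned sign. The 240 and the 170 values include those of Sox10, which passed the filter only with the GFP-negative libraries, where it is high. The replicate block (edgeR) turned Sox1 to 0.12 and Sox21 to 0.061 and, over all genes, called 2 higher and 3 lower, against 1 and 5 without it; with limma on log2(TPM + 1) the block called 0 and 0 and gave Sox1 0.028, and with no filter on low counts it called 12 and 18 and gave Sox1 0.13 and Sox21 0.064. It changed no call of a Sox gene between genotypes. DESeq2 called 4 genes higher. Limma on log2(TPM + 1) gave Sox1 0.028, and on log2(TPM + 0.1) Sox1 0.18 and Sox21 0.12. Without both libraries numbered 1, 0 genes were called in either direction, and Sox1 was 0.21, Sox21 0.24, Sox11 0.007, Sox12 0.007 and Sox8 −0.16. Leaving out 1 library gave 0 to 2 genes higher and 0 to 6 lower; 0 in either direction were left without the knockout library numbered 1, 3 or 4 or the control library numbered 2, 3 or 4, and 1 lower without the knockout library numbered 2 or 5. It also gave ranges of −0.47 to 0.63 for Sox1, −0.22 to 0.41 for Sox2, −0.068 to 0.28 for Sox3, −0.74 to 0.73 for Sox21, −0.083 to 0.053 for Sox11, −0.052 to 0.017 for Sox12 and −0.12 to 0.18 for Sox8. For the difference of knockout effects (2 genes higher, 3 lower), DESeq2 called 1 higher and limma on log2(TPM + 0.1) 5 lower. Limma with pseudocounts of 1 and 0.1 gave −0.031 and −0.048 for Sox2, −0.004 and −0.13 for Sox21 and −0.071 and −0.19 for Sox8. Leaving out 1 library gave 0 to 4 genes higher and 0 to 3 lower, and −0.72 to 0.39 for Sox1, −0.34 to 0.30 for Sox2, −0.74 to 0.76 for Sox21, −0.10 to 0.032 for Sox11, −0.089 to 0.21 for Sox8 and −0.28 to 0.041 for Sox9. The cause of these shifts was not tested. The lone GFP-negative libraries limit the contrast between sorts, share only number 1 with the others, and could not be left out of the difference. Depth limits Sox10 and Sox1, which came near 3 counts in single libraries, and intervals cover the spread between libraries only.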
